A study of Mus musculus with 2 samples.

Results

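Ependymal cells with Ucma, Krt15 and Calb1 are multiciliated cells of the ventricle wall that also held transcripts of a Gla-rich cartilage matrix protein (Ucma), a type I keratin (Krt15) and the calcium buffer calbindin (Calb1). They were chosen by UMI counts, where a UMI marks 1 captured RNA molecule. Barcodes were kept if they held 1000 or more UMIs and 500 or more genes, with no more than 20% of UMIs from mitochondrial genes. A kept barcode was called ependymal when Ccdc153, Tmem212, Rarres2, Dynlrb2, Fam183b and Rsph1 together gave at least 5 UMIs and at least 0.3% of its UMIs. It also needed fewer than 4 UMIs over the interferon-induced genes Ifit1, Ifit3, Igtp, Iigp1, Gbp2, Irgm2 and Oasl2, and at least 3 UMIs over Ucma, Krt15 and Calb1. The rule selected 1477 of 27740 kept barcodes, 319 of 13745 in the metastasis library and 1158 of 13995 in the naive library. The levels of these 16 genes are therefore a property of the choice and not a finding, and the cells below the limit of 3 UMIs (1276 in metastasis and 2307 in naive) served as the nearest comparison.

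The metastasis library was a pool of 3 brains carrying B16/F10-BrM, a brain-tropic line of the mouse B16 melanoma, and the naive library was a pool of 3 brains described as naive. All mice were C57BL/6J and 10 weeks old, and no sham operation of the naive mice is named in the sources used here. Brains were dissociated and depleted of myelin, and cells were enriched with beads against ACSA-2, an astrocyte surface antigen, before droplet capture of about 10000 cells per group with 3′ chemistry. Each group was 1 library, so the spread between animals is not known and no difference was tested. All intervals are at the 95% level and cover counting error alone.

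Ependymal cells line the cerebral ventricles, and their beating cilia move cerebrospinal fluid. Their ciliary programme is driven by Foxj1 and by RFX factors, which bind X-box sequences in the promoters of cilia genes. The lining is not uniform: position along the ventricles is mirrored in the patterning factors that its cells keep from development, and tanycytes, roof plate and floor plate cells are specialised neighbours. Ucma is a vitamin K dependent protein best known from cartilage. Krt15 is best known from basal cells of stratified epithelia, and Calb1 is a classical marker of neuron classes.

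In the GENCODE M21 annotation of GRCm38, Ucma lies on the plus strand at chr2:4976122-4985748, Krt15 on the minus strand at chr11:100131758-100135928 and Calb1 on the plus strand at chr4:15881264-15908064, and all are protein-coding. The promoters below run from 250 bases before to 50 bases after the start of each gene, 5′ to 3′ on its own strand, from RefSeq on GRCm38.p6. They set Ucma, which separates the selected cells, beside the 4 genes of the ependymal gate that the table holds. Capitals mark GTTGCC, a half-site of the X-box, searched on both strands. The motif was chosen after these promoters had been read, so its counts are a description only.
Ucma, plus strand, chr2:4975872-4976171: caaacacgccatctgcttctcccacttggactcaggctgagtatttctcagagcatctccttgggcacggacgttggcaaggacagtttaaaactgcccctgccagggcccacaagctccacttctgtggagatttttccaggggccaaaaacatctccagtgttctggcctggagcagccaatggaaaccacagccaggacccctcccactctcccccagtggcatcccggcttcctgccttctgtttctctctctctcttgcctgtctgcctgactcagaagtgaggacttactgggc
Ccdc153, plus strand, chr9:44240427-44240726: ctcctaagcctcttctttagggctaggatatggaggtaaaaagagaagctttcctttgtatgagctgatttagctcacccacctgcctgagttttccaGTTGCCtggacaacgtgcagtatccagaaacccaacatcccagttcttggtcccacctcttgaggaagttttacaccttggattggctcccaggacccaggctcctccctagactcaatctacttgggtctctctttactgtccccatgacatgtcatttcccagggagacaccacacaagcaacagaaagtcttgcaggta
Dynlrb2, plus strand, chr8:116504765-116505064: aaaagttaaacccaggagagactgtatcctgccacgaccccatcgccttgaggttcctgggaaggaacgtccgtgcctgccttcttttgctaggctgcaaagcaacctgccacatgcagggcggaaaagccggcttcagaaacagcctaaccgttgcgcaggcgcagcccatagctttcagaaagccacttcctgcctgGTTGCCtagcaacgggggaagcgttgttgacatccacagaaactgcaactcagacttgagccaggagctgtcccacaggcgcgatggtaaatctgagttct
Fam183b, minus strand, chr11:58801911-58802210: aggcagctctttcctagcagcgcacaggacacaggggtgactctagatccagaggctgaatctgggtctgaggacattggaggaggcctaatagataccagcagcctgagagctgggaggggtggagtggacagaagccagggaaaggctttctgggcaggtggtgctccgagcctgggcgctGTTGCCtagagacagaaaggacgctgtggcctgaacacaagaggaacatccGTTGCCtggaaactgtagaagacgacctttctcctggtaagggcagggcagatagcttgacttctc
Tmem212, minus strand, chr3:27896319-27896618: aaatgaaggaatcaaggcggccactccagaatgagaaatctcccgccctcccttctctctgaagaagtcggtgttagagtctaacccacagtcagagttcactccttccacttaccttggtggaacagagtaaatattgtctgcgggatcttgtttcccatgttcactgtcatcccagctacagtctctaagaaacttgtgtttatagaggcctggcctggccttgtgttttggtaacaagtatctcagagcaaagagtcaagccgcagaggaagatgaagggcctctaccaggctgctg

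Ccdc153 and Dynlrb2 held 1 match each and Fam183b held a pair, and the Tmem212 and Ucma windows held none. GTTGCC occurred in 16 of 37 promoters (43.2%) of the axonemal dynein and cilia genes, in 3 of 4 promoters (75%) of the ependymal genes that chose the cells, and in 12.5% of all 32851 promoters of this length. It occurred in 2 of 17 promoters (11.8%) of the 11 genes, of 15 named below as higher in the selected cells, that matched the table. Neither GTAAACA, a forkhead core (3.65% of all promoters), nor TAATTA, a homeodomain core (5.29%), was found in the Ucma window. None of the 3 motifs contains another, and Krt15 and Calb1 are named only.

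The selected cells also held ependymal genes that the rule did not read. All 40 axonemal dynein and cilia genes and all 21 further ependymal genes could be measured, and each list was at about the same level as in the cells low in Ucma, Krt15 and Calb1. Foxj1, the master regulator of motile cilia, was at 650 CPM (the class's UMIs of the gene per 1000000 of all its UMIs) in selected cells against 612 CPM in low cells of the metastasis library, and at 616 against 550 CPM in the naive library. For the cilia list, the median log2 ratio of selected over low cells was -0.05 in metastasis and 0.00 in naive, and that of the other ependymal genes was -0.02 and 0.01. None of these genes differed 2-fold the same way in both libraries. The gate gene Ccdc153 stood at 2237 CPM in the selected cells of metastasis and at 2521 CPM in those of naive. In barcodes led by oligodendrocyte genes it stood at 40.2 and 62.3 CPM. The gate read Ccdc153, and these barcodes were taken from outside the gate, so this gap follows from the choice. Low cells passed the same ependymal gate, so equal levels against them do not by themselves establish the cell type. Although the cells had been enriched as astrocytes, ependymal cells made up 17.8% of kept barcodes in metastasis (17.2 to 18.5%) and 25.1% in naive (24.4 to 25.9%).

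Both libraries held barcodes in common, 53 among the kept barcodes and 1 among the selected cells. The libraries contained 89193669 UMIs in metastasis and 69445557 in naive. Free RNA, taken from barcodes with 10 to 100 UMIs, was rich in the choroid plexus gene Ttr in both libraries and in melanoma genes in metastasis. Selected cells had medians of 3675 UMIs in metastasis and 4324.5 in naive, and low cells had medians of 2591 and 2808, so a limit set in UMIs took the deeper cells. Doublets were scored but not removed. The score marked 29 selected cells (9.09%) in metastasis and 114 (9.84%) in naive.

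The selected cells were a smaller share of the interferon-low ependymal cells in the metastasis library. They were 319 of 1595 cells (20%, exact Clopper-Pearson interval 18.1 to 22%) in metastasis and 1158 of 3465 cells (33.4%, 31.8 to 35%) in naive. The share was lower in metastasis at each depth as well. In cells of the lowest depth class, below 2033 UMIs, the share was 5.14% (3.36 to 7.5%) in metastasis and 8.62% (6.74 to 10.8%) in naive. From 2033 to below 3119 UMIs it was 19.3% (15.8 to 23.3%) in metastasis and 27.8% (24.7 to 31.0%) in naive. From 3119 to 4466.5 UMIs it was 22.8% in metastasis and 34.9% in naive, and above that 43.8% (37.8 to 49.9%) in metastasis and 56.1% (52.9 to 59.2%) in naive. The intervals of the libraries overlapped in the lowest of the 4 classes and in none of the others. With every cell thinned to 1000 UMIs, at least 1 UMI of the 3 genes was found in 29.3% of interferon-low ependymal cells in metastasis (27.1 to 31.6%) and 38.6% in naive (37.0 to 40.3%). The same share in oligodendrocyte-gene barcodes, which should lack these genes, was 1.02% in metastasis and 1.70% in naive, at unthinned medians of 2803.5 and 3023.5 UMIs.

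**Figure D1:**
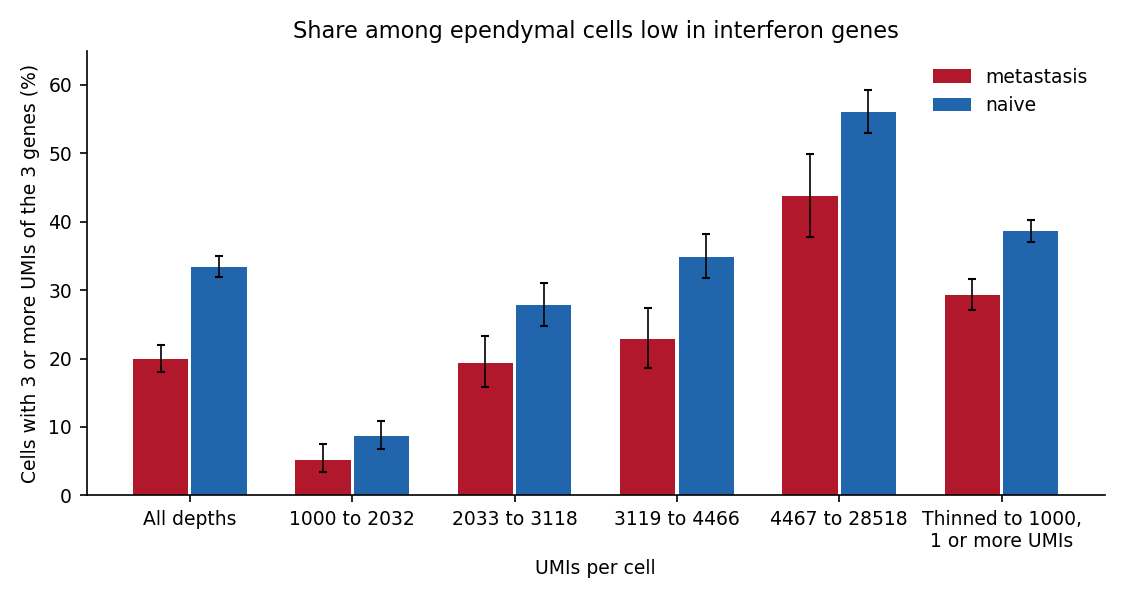
Bars show the percentage of interferon-low ependymal cells that held at least 3 UMIs over Ucma, Krt15 and Calb1, for all cells and for 4 classes of UMIs per cell, and in the last pair at least 1 UMI after thinning to 1000; error bars are exact 95% intervals of counting error. The metastasis bar is below the naive bar in every pair, 20% against 33.4% over all depths.

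The limit on interferon genes removed many more candidate cells from the metastasis library. Of ependymal cells with at least 3 UMIs of Ucma, Krt15 and Calb1, 182 of 501 (36.3%, 32.1 to 40.7%) were left out for their interferon genes in metastasis, and 36 of 1194 (3.02%, 2.12 to 4.15%) in naive. With these cells put back, the share was 20.5% (18.9 to 22.1%) of all ependymal cells in metastasis and 33.9% (32.4 to 35.5%) in naive. Among the interferon-high cells themselves, 182 of 854 (21.3%) reached 3 UMIs in metastasis and 36 of 54 (66.7%, 52.5 to 78.9%) in naive. Those naive cells were deep, with a median of 8395.5 UMIs against 3725.5 in metastasis. Outside the ependymal gate, 3 UMIs of the 3 genes were reached by 23 of 11296 barcodes (0.204%) in metastasis and 13 of 10476 (0.124%) in naive.

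The limit of 3 UMIs cut through a continuous range of counts. Interferon-low ependymal cells with exactly 3 UMIs, just inside the limit, numbered 92 in metastasis and 305 in naive. Those with 2 UMIs, just outside, numbered 193 and 404, and 331 and 716 cells had 1 UMI. The median selected cell held 4 UMIs of the 3 genes in metastasis and 5 in naive, with maxima of 35 and 97.

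Of the 3 genes, Ucma differed most between the libraries. Measured over all interferon-low ependymal cells, a population chosen without the 3 genes, Ucma was at 111 CPM in metastasis against 226 CPM in naive (log2 ratio -1.03, -1.16 to -0.90). Krt15 was at 154 CPM in metastasis against 182 CPM in naive (log2 ratio -0.24, -0.36 to -0.13). Calb1 was at 223 CPM in metastasis against 269 CPM in naive (log2 ratio -0.27, -0.36 to -0.17). The interval of Ucma did not overlap those of the other two. Over all ependymal cells, interferon-high ones included, the log2 ratio was -1.26 for Ucma, -0.42 for Krt15 and -0.38 for Calb1. Foxj1 in the interferon-low population was at 623 CPM in metastasis against 581 CPM in naive (log2 ratio 0.10).

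Within the selected cells, the genes were held in different combinations. Ucma was detected in 46.7% of selected cells in metastasis (41.1 to 52.3%) and 60.6% in naive (57.7 to 63.4%), or 19.7% and 28.7% after thinning. Krt15 was detected in 58.0% in metastasis and 58.2% in naive, and Calb1 in 74.0% and 76.9%. In oligodendrocyte-gene barcodes the unthinned shares of the 3 genes ran from 0.712 to 1.37% in metastasis and from 1.68 to 2.28% in naive. All 3 genes together were found in 51 selected cells (16%, 12.1 to 20.5%) in metastasis and 274 (23.7%, 21.2 to 26.2%) in naive. Calb1 alone was found in 82 cells (25.7%, 21.0 to 30.9%) in metastasis and 233 (20.1%, 17.8 to 22.5%) in naive, and Krt15 alone in 26 (8.15%, 5.39 to 11.7%) and 43 (3.71%, 2.70 to 4.97%). Every pattern depends on depth, and the naive cells were the deeper ones.

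**Figure D2:**
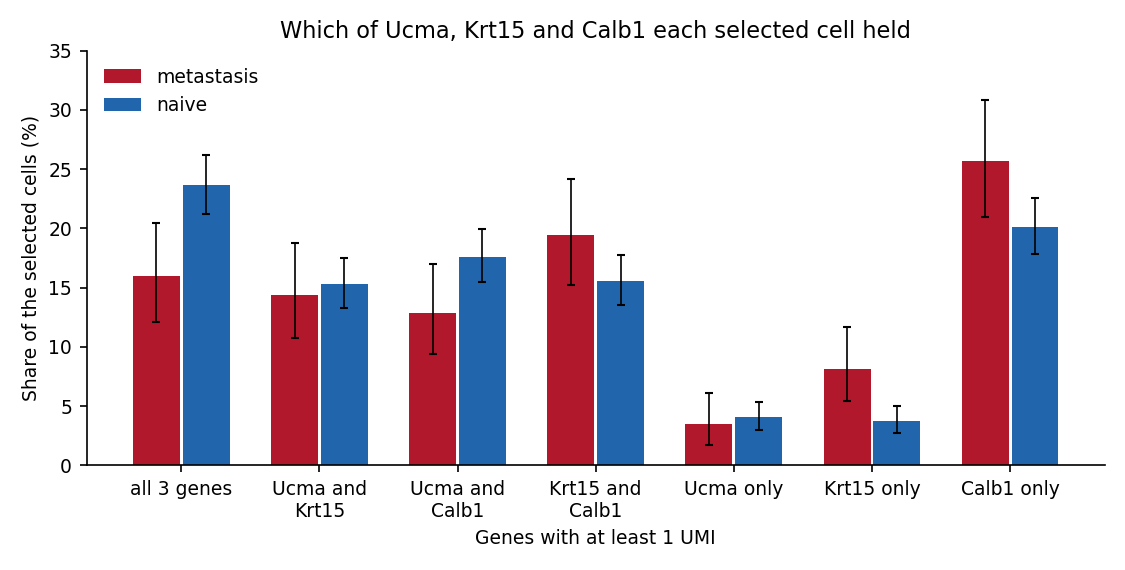
Bars give the percentage of selected cells in which at least 1 UMI of the named genes, and none of the remaining ones, was found, with exact 95% intervals of counting error. Cells with all 3 genes are 16% in metastasis and 23.7% in naive, and cells with Krt15 alone are 8.15% in metastasis and 3.71% in naive.

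Ucma was found more often in cells with Krt15 than in cells without it, while cells with and without Calb1 differed little. In interferon-low ependymal cells thinned to 1000 UMIs, Ucma was found in 28 of 153 metastasis cells with Krt15 (18.3%, 12.5 to 25.4%) and in 88 of 1442 without it (6.10%, 4.92 to 7.46%). In naive it was found in 120 of 448 cells with Krt15 (26.8%, 22.7 to 31.1%) and 340 of 3017 without it (11.3%, 10.2 to 12.5%). With and without Calb1, Ucma was found in 8.66% and 6.98% of metastasis cells and in 13.9% and 13.1% of naive cells. Krt15 with and without Calb1 was found in 11.9% and 9.10% of metastasis cells and in 14.3% and 12.6% of naive cells, and all these intervals overlapped within each library.

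Set against low cells, the selected cells differed in few genes and by moderate amounts. Selected and low cells were split by Ucma, Krt15 and Calb1 themselves, so these ratios describe the choice and no test was made. Of 10225 genes with at least 50 UMIs in each library, 17 were 2-fold or more higher in selected cells in both libraries (0.166%), and 3 of them were the chosen genes. Another 7 were 2-fold or more lower in both (0.0685%), so 24 passed 2-fold the same way in both (0.235%). Within 1 library, 133 genes passed 2-fold either way in metastasis (1.3%) and 73 in naive (0.714%). Beside genes given below, Ccn5, Eya1, Nkd2, Pdp1, Slc6a15, Sostdc1 and Vmn2r30 were among the higher ones, and Lcp1, Wfdc2, C030029H02Rik, Hba-a1 and Hba-a2 among the lower ones. Sostdc1 and all of these lower genes were below their free RNA level in selected and low cells of both libraries. Wfdc2, for instance, was at 7.87 CPM in selected and 16.8 CPM in low cells of metastasis, against 117 CPM in free RNA. The part of free RNA in their ratios was not tested. Over all genes the median log2 ratio was 0.01 in metastasis and 0.03 in naive. Col6a5, a chain of collagen VI, was at 80.7 CPM in selected cells and 26.6 CPM in low cells of the metastasis library (log2 ratio 1.60, 1.21 to 2.0), and at 78.5 and 24.2 CPM in the naive library (1.69, 1.45 to 1.94). Septin3, a septin best known from neurons, was at 53.1 and 17.6 CPM in metastasis (1.59) and at 51.9 and 18.6 CPM in naive (1.48). Htr5b, a serotonin receptor, was at 36.1 CPM in selected and 10.3 CPM in low cells of metastasis (1.81, 1.19 to 2.44), and at 49.4 and 11.8 CPM in naive (2.07, 1.73 to 2.42). Acta2, an actin of contractile cells and otherwise a mural cell marker, was at 297 and 130 CPM in metastasis (1.19) and at 250 and 97.5 CPM in naive (1.36). The whole list of mural markers, Acta2 included, summed to 350 CPM in selected and 189 CPM in low cells of metastasis and to 285 and 173 CPM in naive. Acta2 made up most of each sum. The 3 measured mural markers, Acta2 among them, had median log2 ratios of -0.17 in metastasis and -1.01 in naive. The part of mural RNA was not tested.

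The keratin Krt19 followed the same division at a low level, although too few UMIs were found in metastasis for the count of genes above. It was at 14.4 CPM in selected and 2.44 CPM in low cells of metastasis, and at 15.4 and 3.18 CPM in naive. The keratins of other epithelia in the list, Krt8 (log2 ratio 0.08 in metastasis and -0.01 in naive) and Krt18 (0.17 and -0.09), were at about equal levels, and Krt5, Krt14, Krt17 and Krt20 had no UMI in the selected cells of either library. Of the intermediate filaments of glia, Gfap had a log2 ratio of 0.50 in metastasis and 1.51 in naive, and nestin (Nes) 0.50 and 0.72. The calcium-binding list beside Calb1 was level, with a median of 0.22 in metastasis and 0.04 in naive over 17 measured genes. Within it parvalbumin (Pvalb) had a log2 ratio of 0.43 and 0.48 and S100a6 of 0.62 and 1.10. The vitamin K and Gla protein list, to which Ucma is related, had medians of 0.08 in metastasis and 0.07 in naive over 8 measured genes, none of them 2-fold higher or lower in both libraries.

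Patterning factors, which mark position in the brain, were among the genes that differed. Of 13 measured forebrain factors, Lhx2 and Emx2 were 2-fold higher in both libraries, against 0.166% of all genes, and the list had medians of 0.46 in metastasis and 0.25 in naive. Lhx2, a LIM homeodomain factor of the telencephalon, was at 39.3 CPM in selected and 19.2 CPM in low cells of metastasis (1.03, 0.51 to 1.55), and at 41.2 and 14.3 CPM in naive (1.53, 1.20 to 1.86). Emx2, a cortical homeodomain factor, was at 24.3 and 10.3 CPM in metastasis (1.24) and at 19.7 and 9.67 CPM in naive (1.02). Emx1 (0.83 in metastasis and 0.65 in naive), Meis2 (0.75 and 0.97) and the nuclear receptor Nr2f1 (0.67 and 0.80) were also above low cells. Otx2 (-0.52 and -0.60) and Six3 (-0.32 and -0.28) were below them. Choroid plexus cells also express Otx2, and their markers summed to 4705 CPM in selected and 7421 CPM in low cells of metastasis and to 7475 and 14852 CPM in naive; their part was not tested. With each cell weighing the same, the forebrain median in naive was -0.13. The minimum of UMIs per gene was applied anew under that setting, and Lhx2 and Emx2 then had no value. That median is therefore not over the same genes as the 0.25 above. Whether its change of sign came from the weighting or from the genes lost was not tested.

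Factors of other regions did not all go the opposite way. En1, a midbrain and hindbrain factor, was at 7.87 CPM in selected and 3.8 CPM in low cells of metastasis and at 20.1 and 8.22 CPM in naive, with too few UMIs in metastasis to be counted, and En2 had log2 ratios of 0.85 and 0.78. The 9 measured roof plate and dorsal genes had a median of -0.32 in each library. Rspo3, a secreted enhancer of Wnt signalling, was at 48.5 and 89.2 CPM in metastasis (-0.88, -1.26 to -0.51) and at 46.0 and 77.5 CPM in naive (-0.75, -0.95 to -0.55). Msx1, a roof plate homeodomain factor, had log2 ratios of -0.53 and -0.39, and Wls, the carrier of secreted Wnt proteins, of -0.49 and -0.47. Barhl2, a homeodomain factor of the diencephalon, was at 3.93 CPM in selected and 12.7 CPM in low cells of metastasis (-1.70) and at 2.04 and 8.75 CPM in naive (-2.10). No Hox gene reached the 50 UMIs needed. Of 7 measured tanycyte genes, Lhx2 alone was 2-fold higher in both libraries, and the tanycyte factor Rax had no UMI in the selected cells of either library.

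The named genes of this comparison, chosen by size in both libraries, numbered 15 higher and 10 lower. Beside those described, the higher ones included Pi15, a peptidase inhibitor (1.05 in metastasis and 1.10 in naive), Amotl1, a junction-associated angiomotin (0.92 and 0.90), Slc1a3, the glutamate transporter GLAST (0.74 and 0.83), Clcn4, a chloride and proton exchanger (0.71 and 0.91), and Caly, an endosomal membrane protein (0.88 and 1.23). Others were Rprm, a cell cycle inhibitor (1.03 and 0.78), the desmosomal cadherin Dsc3 (0.89 and 1.42), the natriuretic peptide Nppc (0.77 and 0.84) and the actin-binding palladin, Palld (0.79 and 0.88). Slc1a3 is shared with astrocytes, whose list of markers summed to 1287 CPM in selected and 1029 CPM in low cells of metastasis and to 1323 and 1122 CPM in naive; its part in the result was not tested. The lower ones included Cdh26, a cadherin (-0.97 and -0.95), Matn2, a matrilin (-0.89 and -1.03), Ifitm1, an interferon-induced membrane protein (-1.27 and -0.56), Hspb1, a small heat shock protein (-0.44 and -0.70), Paqr5, a membrane progestin receptor (-0.51 and -0.67), Wdr95 (-1.13 and -0.70) and Endog, a mitochondrial nuclease (-0.44 and -0.39). Haemoglobin genes were lower in selected cells as well, and their free RNA was high. Hbb-bs was at 16.4 CPM in selected and 96.8 CPM in low cells of metastasis, against 518 CPM in its free RNA, and at 38.5 and 405 CPM in naive, against 980 CPM.

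**Figure D3:**
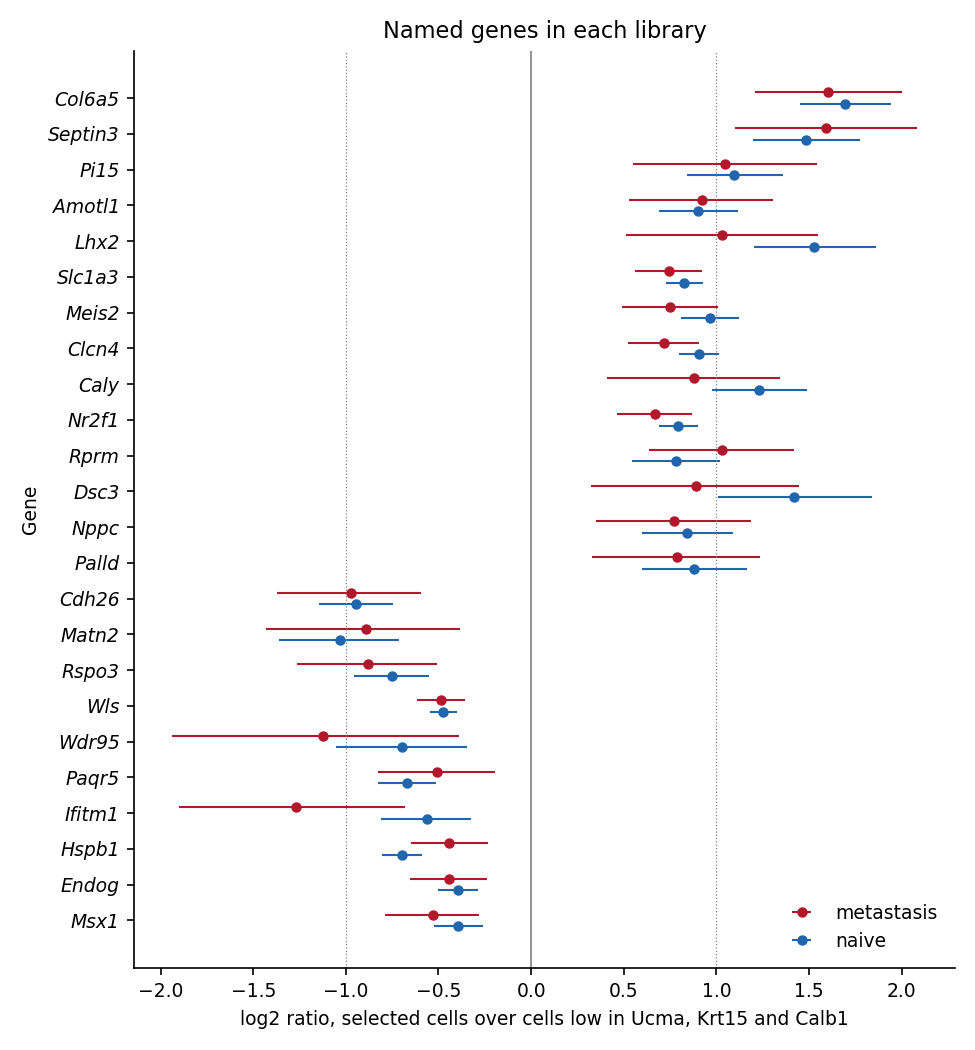
Points are log2 ratios of summed CPM, selected cells over cells low in Ucma, Krt15 and Calb1, for genes named by size, with 95% intervals of counting error; dotted lines mark 2-fold. Each gene shown lies on the same side of 0 in both libraries because it was chosen for that, with Col6a5 and Septin3 farthest to the right.

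The interferon-high ependymal cells, which the rule left out, showed the same division. In metastasis, 182 of them with at least 3 UMIs of the 3 genes (median 4754 UMIs per cell) were set against 672 with fewer (median 3500.5). All 15 named higher genes were higher in that split, with a median log2 ratio of 0.78 and a range of 0.07 to 2.67, and all 10 named lower genes were lower, with a median of -0.31. Lhx2 was at 36.9 CPM against 5.78 CPM (2.67, 1.82 to 3.60). Htr5b was at 36 against 5.06 CPM (2.83), Septin3 at 30.9 against 9.03 CPM (1.77), Acta2 at 250 against 87.8 CPM (1.51) and Col6a5 at 42.0 against 16.3 CPM (1.37, 0.76 to 1.99). The intervals of Pi15, Rprm and Nppc among the higher genes, and of Cdh26, Rspo3, Wls, Wdr95 and Paqr5 among the lower ones, included 0. In naive, with 54 interferon-high cells, 15 of 15 were higher and 7 of 10 lower; Rspo3 (0.72), Msx1 (0.55) and Paqr5 (0.40) were not. Barhl2, which was lower in both libraries among interferon-low cells, had a ratio of 0.15 in the metastasis split. These cells came from the same libraries, so they are not replicates of the animals.

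**Figure D4:**
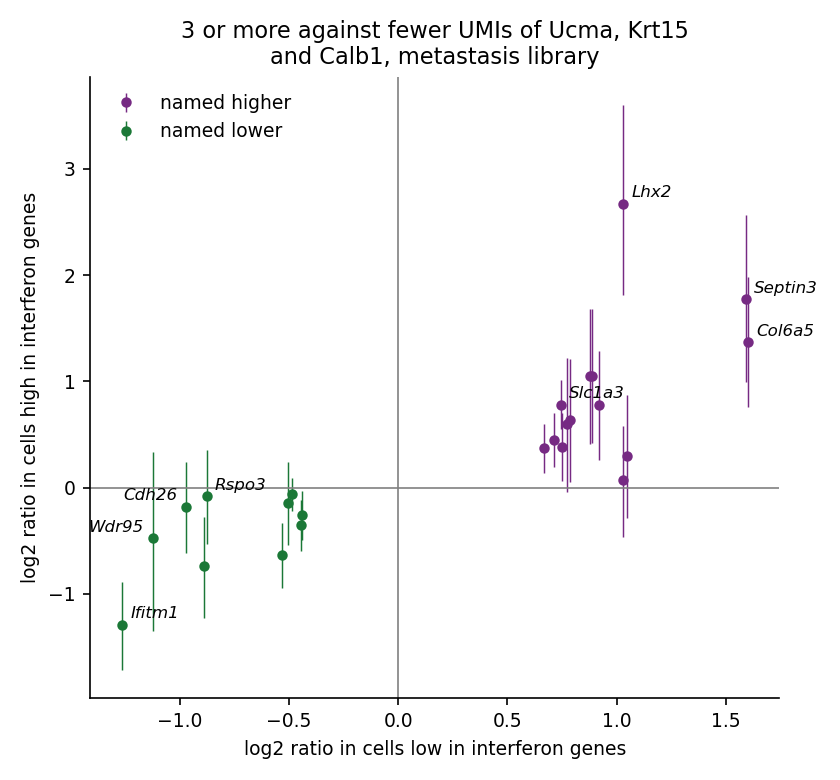
Each point is a gene named by size in interferon-low cells of both libraries. The horizontal axis is its log2 ratio between selected and low cells, the vertical axis the log2 ratio of the same split among interferon-high ependymal cells with its 95% counting interval, both from the metastasis library. All genes shown as named higher lie above 0 and all 10 named lower lie below 0 on the vertical axis, with Lhx2 highest at 2.67.

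The selected cells differed in which of the 3 genes gave most of their UMIs. The median selected cell held 4 UMIs of these genes in metastasis and 5 in naive, so counting error can decide which gene leads. When cells were grouped by the gene that supplied more than 50% of their UMIs of the 3, 42 were led by Ucma, 91 by Krt15 and 134 by Calb1 in metastasis, and 256, 214 and 491 in naive; in 52 and 197 cells no gene passed 50%. Amotl1 was at 126 CPM in Ucma-led, 52.7 CPM in Krt15-led and 46.6 CPM in Calb1-led cells of metastasis, and at 99.6, 76.4 and 45.7 CPM in naive, the same order in both libraries. Lhx2 was at 61.2, 29.5 and 26.9 CPM in metastasis and at 47.4, 37.8 and 28.5 CPM in naive. The metastasis values rested on 31, 25 and 26 UMIs of Amotl1 and on 15, 14 and 15 UMIs of Lhx2. No intervals were computed for these groups, so such differences may lie within counting error. Col6a5 was highest in Calb1-led cells of metastasis (111 CPM) and in Ucma-led cells of naive (120 CPM), so its order was not shared. Genes higher in Calb1-led cells in both libraries, chosen after their values were seen, were the matrix protein Fbln1 (71.7 CPM in Calb1-led and 30.6 CPM in all other selected cells of metastasis, 75.7 and 27.7 CPM in naive) and the actin-severing Gsn (522 and 239 CPM, 604 and 328 CPM). Sncg, a synuclein chosen likewise, was higher in Krt15-led cells (527 and 345 CPM in metastasis, 560 and 364 CPM in naive). The microglial and myeloid genes C1qc (251 and 53.6 CPM in metastasis, 58.7 and 28.1 CPM in naive), Ctss, Fcer1g and Trem2 were also higher in Krt15-led cells. Of the 329 UMIs of C1qa, a partner of C1qc, in the selected cells of metastasis, 164 lay in 1 cell, and the part of single mixed cells in these differences was not tested.

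Between the libraries, the selected cells were level in ciliary genes and differed in antigen presentation, interferon response and acute-phase genes. Of 11553 genes with at least 50 UMIs over both libraries, 134 were 2-fold or more higher (1.16%) and 96 were 2-fold or more lower (0.831%) in metastasis than in naive, 1.99% in all, and the median log2 ratio was 0.00. None of 40 cilia genes and none of 21 further ependymal genes was 2-fold higher or lower, with medians of -0.06 and 0.02. The rule itself held interferon genes down, most of all in metastasis, where 854 ependymal cells were set aside for them. The values below therefore describe only the cells with the least interferon RNA.

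MHC class I and peptide-loading genes were higher in metastasis, with 9 of 14 measured members past 2-fold against 1.16% of all genes, and a median log2 ratio of 1.63. H2-K1, a classical MHC class I heavy chain, was at 641 CPM in metastasis against 130 CPM in naive (2.31, 2.17 to 2.44). B2m, the shared light chain, was at 243 CPM in metastasis against 38.7 CPM in naive (2.65, 2.42 to 2.88). The immunoproteasome subunits Psmb8 and Psmb9 had ratios of 2.74 and 2.67, and the peptide transporter Tap1 of 1.59. Most of these transcripts were also abundant in free RNA of the metastasis library, where H2-K1 stood at 736 CPM and B2m at 997 CPM. With free RNA subtracted, the list's median was 0.43. The fraction subtracted was larger than choroid plexus or melanoma genes would give, so here and below it can take away too much. After the subtraction H2-K1 had a log2 ratio of 2.14, Psmb9 of 1.41, H2-D1 of 0.90 and H2-T23 of 0.03, and Psmb8 (-0.86), Tap1 (-1.40) and B2m (-1.82) turned negative. For B2m in metastasis, more was subtracted than had been counted. Its sum was set to the floor of 3 UMIs, so its negative ratio is not a measured lower level. The part of this floor in the negative ratios of Psmb8 and Tap1 was not tested. Low cells gave a median of 2.23 for the list.

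Of 22 measured interferon response genes that the rule did not read, 11 were 2-fold or more higher in metastasis, against 1.16% of all genes, and none lower, with a median of 0.995 in selected cells and 1.26 in low cells. Irf9, a transcription factor of the interferon response, was at 39.3 CPM in metastasis against 17.8 CPM in naive (1.15, 0.68 to 1.60). The ubiquitin-like Isg15 was at 32.1 and 6.12 CPM (2.39), and the chemokine Cxcl10 at 23.6 and 3.93 CPM (2.59). Of the 22, 4 had a level at or above that in free RNA. After subtraction of free RNA the list's median was 0.11 and Irf9 was at 1.18, and Isg15 (-0.87) and Cxcl10 (-0.79) turned negative. A remainder below 3 UMIs was set to 3 UMIs, so these negative ratios can come from this floor and are not shown to be lower levels.

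**Figure D5:**
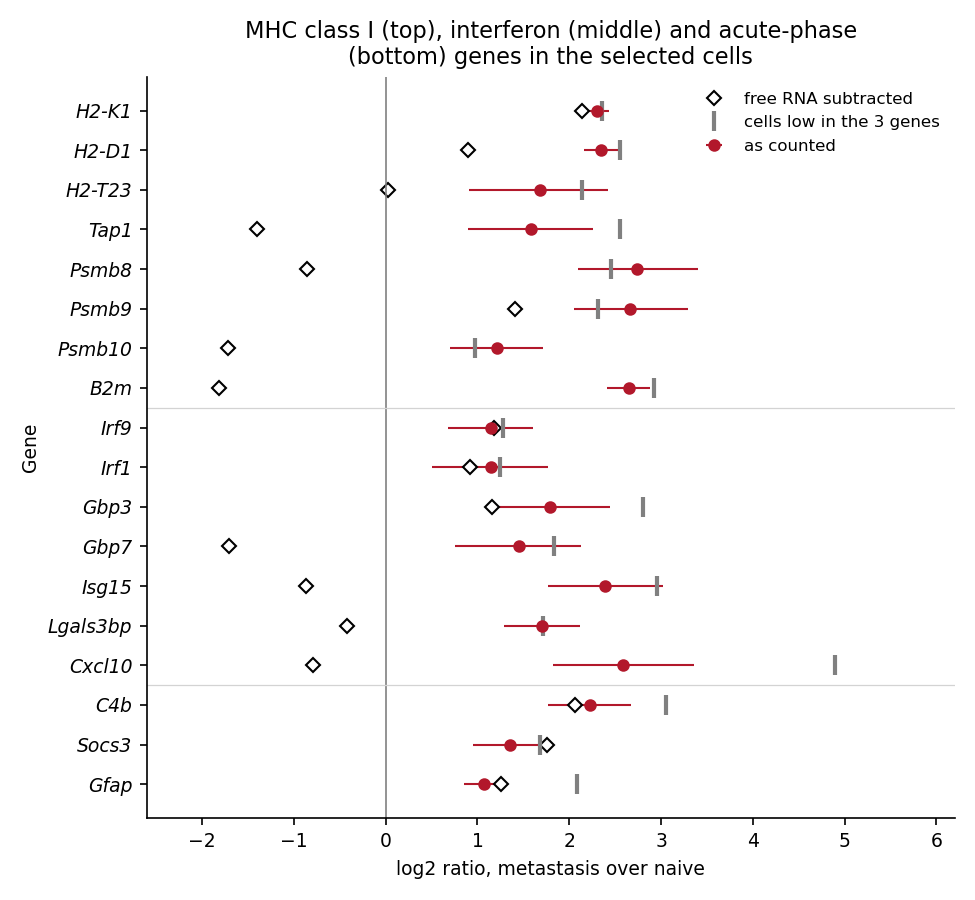
Filled points are log2 ratios of CPM in the selected cells, metastasis over naive, with 95% counting intervals; open diamonds are the same ratio after free RNA was subtracted, and grey bars the ratio in cells low in Ucma, Krt15 and Calb1. H2-K1, Psmb9, Irf9, Gbp3, C4b, Socs3 and Gfap lie above 1 after subtraction. Tap1, Psmb8, Psmb10, B2m, Gbp7, Isg15, Lgals3bp and Cxcl10 lie below 0.

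Of 14 measured acute-phase and reactive genes, 5 were 2-fold or more higher in metastasis, against 1.16% of all genes, with a median of 0.65 in selected cells and 0.95 in low cells. The 5 were C4b, Socs3, Gfap, Cebpd (1.86) and Lcn2, of whose 97 UMIs 91 lay in 1 cell. In this list 12 of 14 were at or above their level in free RNA, and the median was 0.70 with free RNA subtracted. Gfap, the astrocyte filament that ependymal cells also make, was at 178 CPM in metastasis against 84.9 CPM in naive (1.07, 0.86 to 1.28). In low cells Gfap was at 126 CPM in metastasis against 29.8 CPM in naive (2.08). C4b, a complement component, was at 57.0 CPM in metastasis against 12.2 CPM in naive (2.22, 1.77 to 2.67), and its 87 UMIs in metastasis came from 59 cells. Socs3, the feedback inhibitor of cytokine signalling, was at 54.4 and 21.3 CPM (1.36), and the transcription factor Stat3 at 76.7 and 39.0 CPM (0.97). C3 was at 112 and 74.9 CPM (0.58), against 1.72 in low cells. The smooth muscle gene Tagln was at 88.5 and 23 CPM (1.94), with 25 of its 135 UMIs in metastasis in 1 cell, and the cadherin Cdh19 at 29.5 and 12.4 CPM (1.25). Of 16 immediate early genes, Zfp36 (1.24) and Junb (1.14) were past 2-fold, against 1.16% of all genes, with a list median of 0.34. Only 5 of the 16 were at or above free RNA; after its subtraction the median was 0.03, Zfp36 was at 1.28 and Junb at 0.29.

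The named genes with the highest ratios, S100a8, S100a9, Camp, Ngp and Hmox1, rested on 1 cell each. In the metastasis library, 1 selected cell held all 810 UMIs of S100a8, a neutrophil gene, and another neutrophil gene, S100a9, had 926 of 927 UMIs in 1 cell. Ngp (164 UMIs) and Camp (160 UMIs) were also each found in 1 cell, and 325 of 343 UMIs of the haem oxygenase gene Hmox1 lay in 1 cell. Removing cells with 20 or more UMIs of microglial, macrophage and neutrophil genes, or with 1% oligodendrocyte UMIs, took away 28 selected cells in metastasis and 98 in naive, and none of these 5 genes then had 50 UMIs. Marker lists of other cells differed between the libraries as well. In selected cells the macrophage list summed to 1036 CPM in metastasis and 10.6 CPM in naive, of which Spp1 lay almost wholly in 1 cell, and the melanoma list to 358 and 13.7 CPM. The melanoma list had 6801 CPM in free RNA of metastasis and 383 CPM in that of naive, and none of the 4 measured melanoma genes was above free RNA in selected cells. The part of these cells and of free RNA in the other results was not tested beyond the subtraction and removals given.

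Genes lower in metastasis were few and at low levels, with 96 of 11553 past 2-fold (0.831%). En1 was at 7.87 CPM in metastasis against 20.1 CPM in naive (-1.35, -2.34 to -0.50), from 12 UMIs in metastasis, and over all interferon-low ependymal cells it was at 4.99 and 13.9 CPM (-1.48, -2.13 to -0.88). Over all ependymal cells, interferon-high ones included, the En1 difference was smaller, at 9.95 and 13.6 CPM (-0.45, -0.83 to -0.09). Il17b, a cytokine of the interleukin 17 family, was at 13.8 CPM in metastasis against 31.0 CPM in naive (-1.17, -1.89 to -0.52), but at 25.2 and 18.7 CPM in low cells (0.43). St6galnac3, a sialyltransferase, was at 12.5 and 31.3 CPM (-1.33), and Pygl, a glycogen phosphorylase, at 7.87 and 21.4 CPM (-1.44). In metastasis, St6galnac3 and Pygl were below their level in free RNA (31.1 and 15.6 CPM), as were Retreg3 and Ttc9c. The remaining named genes, Grcc10, Tmem267, Armh1, Iqch, Retreg3, Zmym6, Ttc9c and Armh2, had log2 ratios from -1.40 to -0.82, each with at most 51 UMIs in metastasis. Of the regional genes described above, Lhx2 had a log2 ratio between the libraries of -0.07, Emx2 of 0.30 and Meis2 of 0.10 in selected cells, each with an interval that included 0. Nr2f1 had a log2 ratio of -0.27 (-0.44 to -0.10).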

How the data were processed

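The authors used STARsolo and GRCm38, per the submitters' processing notes (version, annotation and settings: not given in the sources used here). What they deposited are raw UMI counts for 55401 genes and 6794880 barcodes in each library, most of the barcodes empty. With their version, 54349 identifiers are in GENCODE M21.

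The members and gene lists were chosen with earlier results of these data known. UMIs were summed per library and class and scaled to 1000000 (CPM). A gene needed 50 UMIs, a sum of 0 was set to 3 UMIs, and called means past 2-fold. Reads are 3′ tags, so levels of different genes are not compared. Intervals are Clopper-Pearson for shares and exact conditional binomial for ratios, a calculation checked on simulated counts.

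Named genes were the 12 highest and 12 lowest ratios between libraries, and the 15 highest and 10 lowest against low cells in both libraries, with 10 CPM added. They needed 100 UMIs and, in the library or class where the gene was higher, a level at or above free RNA; mitochondrial, ribosomal and predicted genes and markers of other cells were left out. Up to 4 members of each list, by size, and those that a group description needed were named in addition. Htr5b, Barhl2 and the genes listed with them as past 2-fold fell outside this rule and were chosen after their values were seen. Oligodendrocyte-gene barcodes held at least 2% of UMIs from that list. Doublets were scored with scrublet in scanpy 1.11.5 (expected rate 0.06). Its automatic limit called 0 of 13745 barcodes in metastasis, so the top scores (852 and 855 barcodes) were removed in an alternative only. Free RNA was subtracted in another, at 0.361 of selected cells' UMIs in metastasis and 0.269 in naive, the fraction given by oligodendrocyte genes. For low cells the fraction was 0.396 in metastasis and 0.436 in naive, so it was larger than in selected cells, most of all in naive. The part of this difference in the ratios of selected over low cells was not tested beyond the subtraction. Choroid plexus and melanoma genes would give smaller fractions. Choroid plexus genes summed to 4705 CPM in selected cells and 79379 CPM in free RNA of metastasis, and to 7475 and 217945 CPM in naive. Melanoma genes summed to 358 and 6801 CPM in metastasis. The subtraction can therefore take away too much. A remainder below 3 UMIs was set to 3 UMIs. Python 3.11.15, numpy 2.4.6, pandas 2.3.3, scipy 1.17.1 and matplotlib 3.10.9 were used. Some genes that met these rules are not reported here.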

Additional observations from a re-analysis of the deposited data

How the results depend on the processing

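The share of selected cells was lower in metastasis than in naive under every change of gate that was tried. It was 26.4% in metastasis and 40.3% in naive with at least 2000 UMIs per cell, 32.1% and 45.1% with at least 2 UMIs of the 3 genes, and 9.53% and 18.6% with at least 5. It was 29.8% and 39.7% with the limit set on thinned cells, and 22.1% and 36.4% with at least 1% ependymal UMIs; with at most 10% mitochondrial UMIs the naive share was 35.6%. The counts of genes past 2-fold depended on the settings. The minimum of UMIs per gene was applied anew under each setting, so the number of genes measured could differ from 11553 and 10225. The counts below are therefore not shares of the same genes, and part of their change can come from how many genes were measured. Against 134 genes higher and 96 lower in metastasis, the counts were 82 and 165 with at least 1% ependymal UMIs, 46 and 59 with cells weighing equally, 354 and 1250 with free RNA subtracted, 347 and 367 with a minimum of 20 UMIs per gene, 50 and 26 with a minimum of 100, and 59 and 1 with 10 CPM added. With at least 5 UMIs of the 3 genes 158 were lower, and without the interferon limit 231 were higher. Against 17 genes higher and 7 lower in selected than in low cells of both libraries, the counts were 105 and 20 with free RNA subtracted, 28 and 43 with a minimum of 20 UMIs, 9 and 2 with a minimum of 100, 7 and 3 with 10 CPM added, and 7 and 1 with at least 1% ependymal UMIs. The count higher was 7 with cells weighing equally and 10 with the limit set on thinned cells. The count lower was 3 with at least 2000 UMIs per cell, 26 with at least 5 UMIs of the 3 genes, and 4 with cells holding markers of other types removed. Of 785 gene values, 694 moved by less than their counting interval, 82 by more, and 9 that were past 2-fold changed sign between metastasis and naive, all with free RNA subtracted: Isg15 (log2 ratio -0.87), Gbp7 (-1.71), Cxcl10 (-0.79), Lgals3bp (-0.42), Trim30a (-0.32), B2m (-1.82), Tap1 (-1.40), Psmb8 (-0.86) and Psmb10 (-1.72). In that alternative a remainder below 3 UMIs was set to 3 UMIs, as for B2m in metastasis, so a negative ratio can come from this floor. The part of the floor in the other sign changes was not tested. Removing called doublets or barcodes found in both libraries kept all counts within 1.5 times. The alternatives that removed cells with markers of other types and barcodes found in both libraries were chosen after seeing the data. No paired analysis was possible because each group was 1 library and the labels carry no replicate numbers.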
